A study of Mus musculus with 11 samples.

Results

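The transcription factors described here mark or specify types of retinal ganglion cell (RGC), the output neurons of the retina, and lie outside the T-box, Brn3, islet and Ebf families. They are 33 genes, matched by symbol, of 24421 in the count files, and all 33 were found. They were measured in J-RGCs, an RGC type known for expressing the adhesion molecule Jam2, sorted by a green fluorescent reporter from retinas of mice of a mixed C57BL/6 and CD1 background at postnatal day 4 to 5. The 6 Tbr1 KO libraries came from 4 animals, a (libraries 1 and 2), b (3 and 4), c (5) and d (6). The 5 WT libraries came from 4 animals, a (library 1), b (2 and 3), c (4) and d (5). Each library was made from a pool of 100 cells with Smart-seq2, and both genotypes carried the reporter. The Tbr1 allele, the cells in which it was deleted and the name of the reporter line are not stated in the labels. Libraries of 1 animal were summed, so 4 KO animals were set against 4 WT animals, and the comparison asks which of these factors depend on Tbr1, itself a T-box transcription factor of J-RGCs.

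Ganglion cells differentiate under a shared programme and then split into many types, each held by a small combination of transcription factors. FOXP proteins mark the F-RGCs, Satb1 acts in direction-selective cells that stratify in both sublaminae, and Tbr1 marks a small group of types that includes the J-RGC. Other factors in the set act more broadly, such as the SoxC proteins in RGC differentiation. Several are also used by other retinal cells, such as Neurod1 in photoreceptors and Irx5 and Irx6 in bipolar cells.

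None of the 28 subtype factors that could be tested changed between genotypes at an adjusted p under 0.05 by the edgeR quasi-likelihood test, while DESeq2 called 1, Lmo4. Levels below are TMM-normalised CPM, a gene's reads scaled to a common library total, and 5 of the 33 members (Foxp2, Irx1, Irx2, Irx4 and Zic1) did not pass the filter on low counts. Of the 28, 0 were called after Benjamini-Hochberg adjustment over all 13957 tested genes, where 0.287% of tested genes were called (0.201% lower and 0.086% higher in KO animals), and the members' adjusted p by that edgeR test ran from 0.285 to 0.999. At an unadjusted edgeR p under 0.05 there were 4 members, Lmo4 lower and Irx5, Irx6 and Lmo1 higher in KO animals, where 7.09% of tested genes passed that mark (3.7% lower and 3.4% higher). The DESeq2 Wald test, which gave an adjusted p for 31 members, called Lmo4 (adjusted p = 0.0207), where it called 1.65% of genes. It had 6 members at an unadjusted p under 0.05, where 8.56% of genes passed that mark. For 2 of the 28 members, Lmo4 and Irx6, the animals of the genotypes did not overlap, where 5.06% of tested genes showed no overlap (2.48% with KO animals lower and 2.58% with KO animals higher). The median log2 fold change over the 28 was 0.17, with 18 positive and 10 negative values, beside a median of -0.0007 and 49.9% positive values over all tested genes. In these bulk pools, fewer cells of a type and less RNA per cell cannot be told apart.

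The precision of the comparison differed widely between members. For 12 of the 28, the 95% interval of the log2 fold change lay within 2-fold in both directions, as for 51.6% of tested genes. These 12 were Irx5, Irx6, Myt1l, Zfhx3, Barhl2, Klf7, Sox4, Sox11, Six6, Foxp4, Meis1 and Satb1. For the other 16 the interval reached past a 2-fold difference, so a change of that size was not excluded by these data.

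The promoters of the LIM-only genes Lmo4 and Lmo1 are shown because these paralogs had fold changes of opposite sign. Each line gives the 250 bases before the outermost start in RefSeq on GRCm38.p6, read 5′ to 3′ on the gene's own minus strand, with CpG dinucleotides in capitals. The Lmo4 window is chr3:144205256-144205505 and the Lmo1 window is chr7:109175208-109175457.
Lmo4: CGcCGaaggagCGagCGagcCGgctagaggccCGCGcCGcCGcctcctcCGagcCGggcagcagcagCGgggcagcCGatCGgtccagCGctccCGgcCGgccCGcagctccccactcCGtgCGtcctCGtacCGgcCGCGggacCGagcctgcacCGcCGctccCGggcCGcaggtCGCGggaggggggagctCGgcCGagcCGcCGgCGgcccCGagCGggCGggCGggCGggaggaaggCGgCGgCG
Lmo1: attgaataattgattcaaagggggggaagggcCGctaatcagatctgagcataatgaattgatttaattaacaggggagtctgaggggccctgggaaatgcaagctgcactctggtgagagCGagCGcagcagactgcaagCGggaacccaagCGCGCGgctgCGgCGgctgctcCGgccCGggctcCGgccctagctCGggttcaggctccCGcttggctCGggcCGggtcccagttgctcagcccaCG
The Lmo4 window holds 44 CpG dinucleotides and the Lmo1 window 17, where the median over all promoters of the table is 6. The T-box core sequence AGGTGT, searched on both strands, lies in neither window. Of the 33 members, 26 have a promoter in the table, and 0 of these 26 windows hold AGGTGT or its reverse complement, where 12% of the 27025 windows of all genes do. This is a description of the letters in these windows and says nothing of binding elsewhere.

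Per kilobase of merged exons, which allows a rough comparison between genes, the most abundant factors were homeodomain proteins. The merged length counts every annotated exon, used in these cells or not. Irx6 was at 150 ± 28.7 CPM per kilobase in KO animals and 122 ± 5.43 in WT animals (SD, n = 4 each), above 97.0% of tested genes with a known length in WT animals. Barhl2, a homeodomain factor that acts in ganglion and amacrine cell development, was at 106 ± 16.5 CPM per kilobase in KO animals and 102 ± 11.4 in WT animals. Next in WT animals came Myt1l and Irx5, at 39.5 ± 1.93 and 39.4 ± 8.94 CPM per kilobase, which did not differ beyond their spread. In KO animals Myt1l was at 39.5 ± 6.95 and Irx5 at 55.1 ± 4.13 CPM per kilobase. Sox4 and Six6 followed, at 23.3 ± 3.69 and 22.6 ± 2.88 CPM per kilobase in WT animals, again within their spread. Satb1 lay much lower, at 1.29 ± 0.0414 CPM per kilobase in KO animals and 1.16 ± 0.350 in WT animals, above 23.8% of tested genes. Its merged exons are 19027 bases long, and without division by length it was at 24.5 CPM in KO and 22.0 CPM in WT animals.

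**Figure D1:**
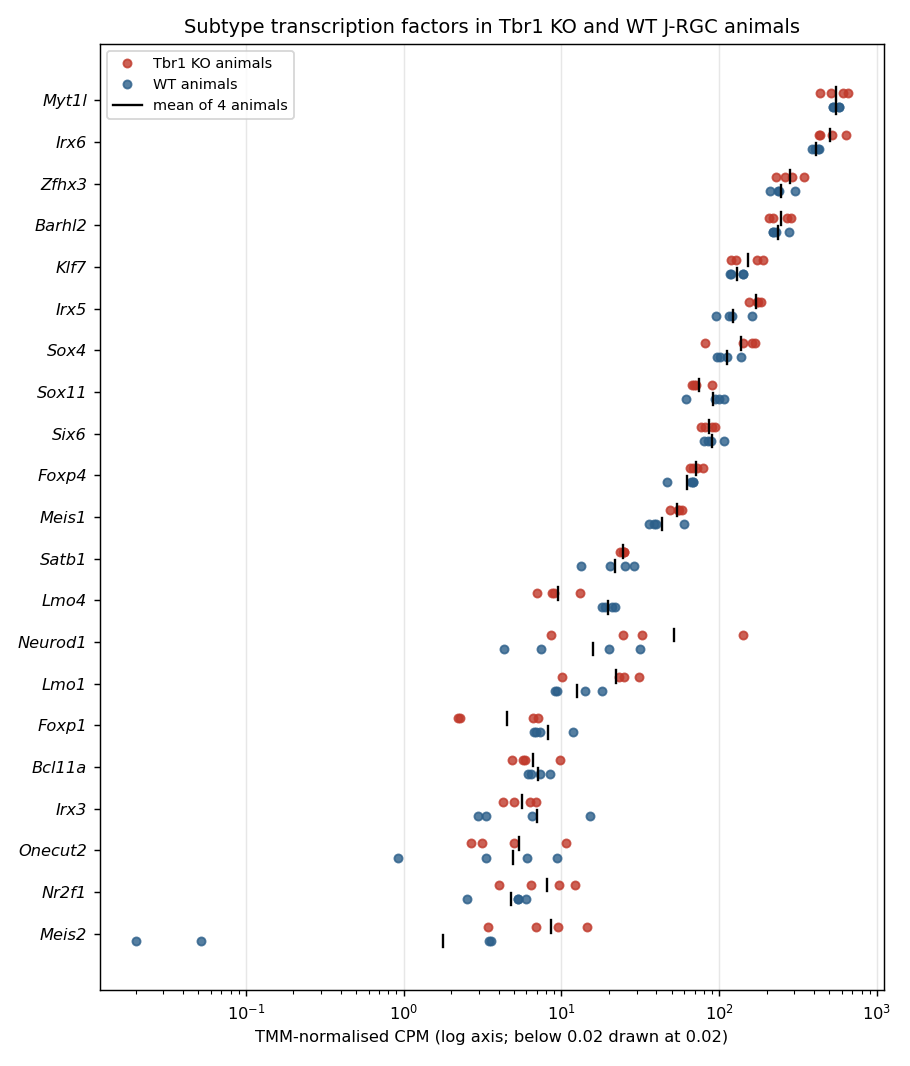
TMM-normalised CPM on a log axis of the 21 tested members at 5 CPM or more in either genotype, 1 point per animal, with Tbr1 KO above WT a bar at each mean of 4 animals, and values below 0.02 drawn at 0.02. Lmo4 is the member whose KO animals (7.02 to 13.2 CPM) all lie below its WT animals (17.99 to 21.9 CPM), and the animals of Neurod1 and Meis2 spread widely.

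LIM-only proteins bind partner proteins without touching DNA themselves. Lmo4 (GRCm38 chromosome 3, 144188530 to 144205220) was at 8.69, 7.02, 13.2 and 8.96 CPM in KO animals a to d, against 17.99, 21.9, 20.9 and 18.8 CPM in WT animals a to d. Every KO animal lay below every WT animal. Pools of 1 animal showed the same split, with 8.28 and 9.48 CPM in KO animal a and 5.31 and 9.91 CPM in KO animal b, against 20.8 and 25.4 CPM in WT animal b. The log2 fold change was -1.07 ± 0.29 (SE), with a 95% interval of -1.71 to -0.44. The edgeR quasi-likelihood test gave an adjusted p of 0.285 (Benjamini-Hochberg), and an exact two-sided permutation test over animals gave p = 0.0286, the smallest that 4 against 4 animals allow. With each animal left out in turn the log2 fold change of Lmo4 stayed between -1.27 and -0.95.

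Lmo1 (chromosome 7, 109138572 to 109175207) was at 10.02, 23.1, 31.1 and 25.1 CPM in KO animals a to d, against 9.44, 14.1, 9.06 and 18.1 CPM in WT animals a to d. KO animal a lay among the WT animals, and the other KO animals lay above all of them. Lmo1 had a log2 fold change of 0.82 ± 0.37 (SE), with a 95% interval of 0.01 to 1.63, an edgeR adjusted p of 0.689 (Benjamini-Hochberg) and an exact two-sided permutation p of 0.143. It was 0.62 without KO animal c and 1.06 without KO animal a. Lmo2, known for its role in blood and vessel development, was near zero, with 75, 0, 155, 26, 0 and 52 reads in KO libraries 1 to 6 and 0, 32, 43, 43 and 29 reads in WT libraries 1 to 5.

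**Figure D2:**
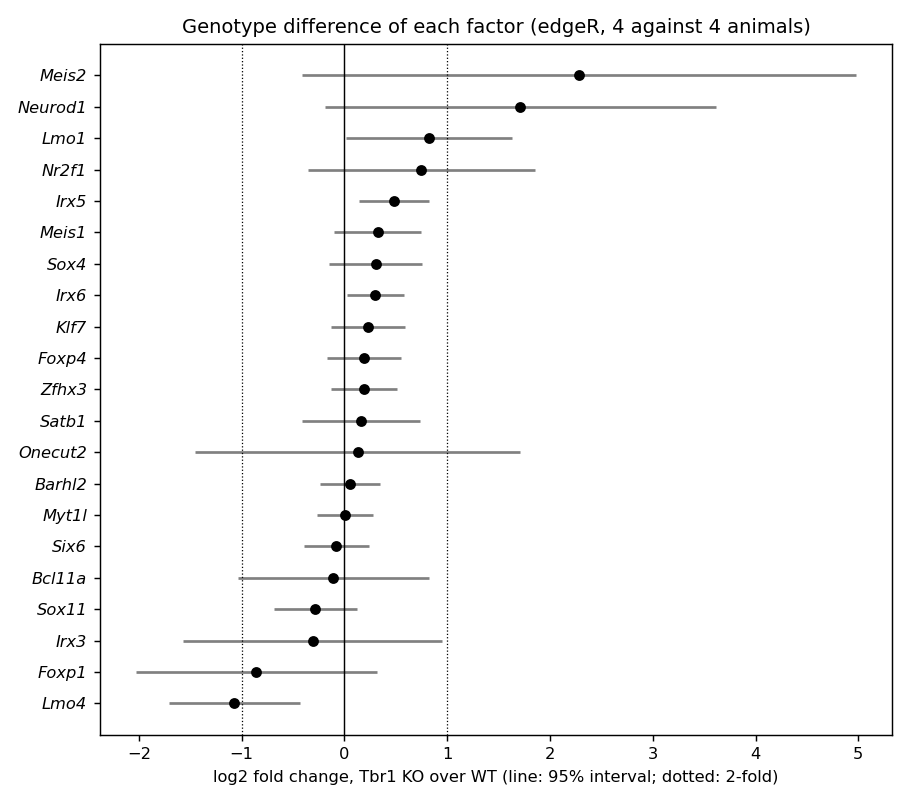
Log2 fold change of Tbr1 KO over WT for the same 21 members (points) with its 95% interval (lines), from the edgeR fit of 4 against 4 animals. The Lmo4 interval lies wholly below 0 and those of Lmo1, Irx5 and Irx6 above it. The intervals of Meis2, Neurod1, Foxp1, Lmo4, Lmo1, Irx3, Nr2f1, Onecut2 and Bcl11a reach past 2-fold, the dotted lines.

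Iroquois factors are homeodomain proteins encoded in a pair of gene clusters, with Irx3, Irx5 and Irx6 on chromosome 8 and Irx1, Irx2 and Irx4 on chromosome 13. In J-RGCs the chromosome 8 cluster supplied nearly all Iroquois reads. Irx6 (92674288 to 92680956) was at 522, 431, 436 and 637 CPM in KO animals a to d, against 388, 404, 423 and 428 CPM in WT animals a to d. All KO animals lay above all WT animals, although KO animals b and c exceeded WT animal d by little. For Irx6 the log2 fold change was 0.30 ± 0.13 (SE), with a 95% interval of 0.02 to 0.58, an edgeR adjusted p of 0.659 (Benjamini-Hochberg) and an exact two-sided permutation p of 0.0286. Without KO animal d it was 0.17.

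Irx5 (92357625 to 92376286), which starts 556 kb beyond Irx3 and ends 298 kb before Irx6, was at 185, 177, 155 and 173 CPM in KO animals a to d. In WT animals a to d it was at 162, 121, 95.5 and 115 CPM. WT animal a lay among the KO animals, and the other WT animals lay below all of them. For Irx5 the log2 fold change was 0.48 ± 0.16 (SE), with a 95% interval of 0.14 to 0.82, an edgeR adjusted p of 0.462 (Benjamini-Hochberg) and an exact two-sided permutation p of 0.0571. It was 0.65 without WT animal a and 0.38 without WT animal c. Irx6 overlaps Gm45505 on the opposite strand, and Smart-seq2 does not mark strand, so their reads cannot be told apart. The same holds for Irx3 (Irx3os), Neurod1 (Gm26755), Satb1 (Gm6934), Meis1 (Gm16140), Sox4 (Gm26735), Six6 (4930447C04Rik), Klf7 (Gm13748 and Gm26649), Myt1l (Gm20208), Bcl11a (4930538E20Rik), Tfap2d (Gm15825) and Zic1 (Zic4).

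Bipolar cell genes stood beside these values as follows. The 10 bipolar markers summed to 690 to 908 CPM in KO animals and 808 to 1177 CPM in WT animals, of which Isl1, also an RGC gene, made up 92.2%. Of the 10, 4 stayed under 5 CPM in every animal, such as Cabp5 at 0.045 to 0.18 CPM in KO animals and 0.04 to 0.34 CPM in WT animals. Otx2, also a photoreceptor gene, was at 11.7 to 157 CPM in KO animals and 9.99 to 36.5 CPM in WT animals. Of the 5 tested bipolar markers, 0 passed the adjusted threshold. The part of bipolar RNA in the Irx5 and Irx6 values was not tested.

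The remaining Iroquois members were scarce. Irx3 was at 4.28, 5.02, 6.37 and 6.96 CPM in KO animals a to d, against 15.2, 3.34, 6.53 and 2.95 CPM in WT animals a to d, with an edgeR log2 fold change of -0.31 ± 0.58 (SE). WT animal a held more than any other animal, and without it the log2 fold change was 0.41. Irx1 had 0 reads in all 11 libraries, which allows up to 0.0181 CPM over the KO reads and 0.0229 CPM over the WT reads. Irx2 had 0, 81, 80, 0, 5 and 0 reads in KO libraries 1 to 6, against 0, 1, 0, 0 and 0 reads in WT libraries 1 to 5. Irx4, which is known in chick to act in ganglion cell axon guidance, had 21, 11, 0, 2, 77 and 0 reads in KO libraries and 0, 46, 0, 0 and 0 reads in WT libraries. Irx2 thus had reads in 3 KO libraries and a single read in the WT libraries, and Irx4 had reads in 4 KO libraries and 1 WT library. The pools of KO animals a and b disagreed on Irx2, with reads in 1 pool and none in the other.

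FOXP factors are forkhead repressors, and Foxp4 was the main member in these cells. It was at 65.0, 78.6, 68.7 and 72.9 CPM in KO animals a to d, against 68.4, 46.5, 68.7 and 66.6 CPM in WT animals a to d. Foxp4 had a log2 fold change of 0.19 ± 0.17 (SE), with a 95% interval of -0.17 to 0.55. Foxp1 was at 7.06, 2.28, 6.58 and 2.23 CPM in KO animals, against 7.34, 6.71, 6.91 and 11.9 CPM in WT animals. KO animals b and d were low for Foxp1, and KO animal a overlapped the WT range. Its log2 fold change was -0.86 ± 0.54 (SE), with a 95% interval of -2.03 to 0.32 and an edgeR adjusted p of 0.852 (Benjamini-Hochberg). Foxp2, a marker of F-RGCs, did not pass the filter, with 0, 7, 181, 0, 0 and 0 reads in KO libraries 1 to 6 and 37, 0, 1, 0 and 2 reads in WT libraries 1 to 5.

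Of the ganglion cell type selectors and markers, Bnc2, Tfap2d and Zic1 were low, while Zfhx3, described below, was abundant. Satb1, a chromatin organiser, was at 24.7, 25.0, 25.0 and 23.4 CPM in KO animals a to d, against 13.4, 25.3, 28.8 and 20.5 CPM in WT animals a to d, with overlapping ranges. Its log2 fold change was 0.16 ± 0.26 (SE), with a 95% interval of -0.42 to 0.73. The pools of KO animal b were at 14.7 and 42.3 CPM. Bnc2, a basonuclin zinc-finger protein, had 87 reads in KO library 4 and 0 in the other KO libraries, against 1, 111, 28, 90 and 14 reads in WT libraries 1 to 5. Tfap2d, an AP-2 factor of an RGC subset, had 68 reads over the KO animals and 90 over the WT animals, of which 89 lay in WT library 5. Zic1 was untested, at 3 to 9 reads per KO library and 2 to 5 reads in 4 WT libraries, with 46 in WT library 4. The edgeR adjusted p was 0.935 for Bnc2 and 0.982 for Tfap2d (Benjamini-Hochberg).

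Zfhx3, a large zinc-finger homeodomain protein, was at 281 ± 48.2 CPM in KO animals and 247 ± 39.6 CPM in WT animals (SD, n = 4 each). Its log2 fold change was 0.19 ± 0.15 (SE), with a 95% interval of -0.13 to 0.51. Bcl11a, a zinc-finger protein of developing neurons, was at 6.59 ± 2.23 CPM in KO animals and 7.11 ± 1.05 CPM in WT animals, with an interval of -1.04 to 0.82. Etv1, an ETS factor, ranged from 0.63 to 8.002 CPM in KO animals and from 0 to 3.52 CPM in WT animals.

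NeuroD factors are basic helix-loop-helix proteins, and Neurod1 varied widely between KO animals. It was at 8.64, 24.7, 142 and 32.6 CPM in KO animals a to d, against 7.42, 4.30, 19.98 and 31.7 CPM in WT animals a to d. KO animal c stood far above the rest, and the other KO animals lay within or close to the WT range. Neurod1 had a log2 fold change of 1.71 ± 0.85 (SE), with an edgeR adjusted p of 0.764 (Benjamini-Hochberg), and it was 0.48 without KO animal c. Photoreceptor genes were high in the same animal: the 16 photoreceptor markers summed to 66.1, 280, 1168 and 335 CPM in KO animals a to d, against 68.2, 97.7, 138 and 353 CPM in WT animals a to d. Of the 14 tested photoreceptor markers, 0 passed the adjusted threshold and all 14 had positive fold changes, and their part in the Neurod1 values was not tested. Of the cone opsin genes, Opn1sw was at 0, 22.5, 97.6 and 28.8 CPM in KO animals a to d, against 0, 0, 6.91 and 8.79 CPM in WT animals a to d, and Opn1mw was at 0 in all animals.

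Neurod4, a paralog outside the set, was at 2.78, 21.0, 69.4 and 23.3 CPM in KO animals a to d, against 5.04, 0.88, 11.7 and 12.6 CPM in WT animals a to d. Its log2 fold change was 1.95 ± 0.84 (SE), with an edgeR adjusted p of 0.671 (Benjamini-Hochberg), and it was 1.06 without KO animal c. Neurod2 had 0, 7, 82, 0, 34 and 0 reads in KO libraries 1 to 6, against 64, 0, 4, 30 and 4 reads in WT libraries 1 to 5.

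**Figure D3:**
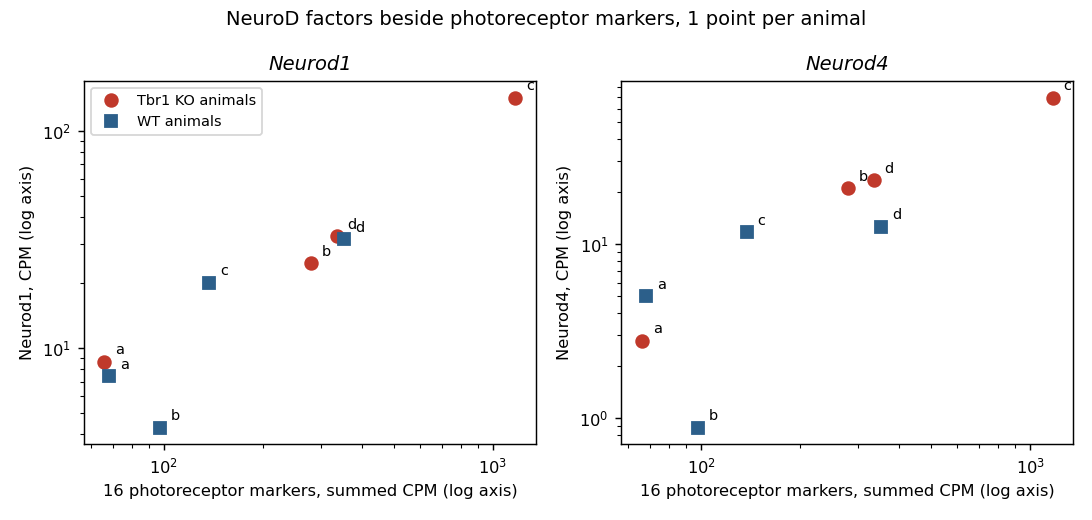
Neurod1 (left) and Neurod4 (right) in CPM against the summed CPM of 16 photoreceptor markers, both on log axes, 1 point per animal with its letter, for Tbr1 KO (circles) and WT (squares). KO animal c has the highest value on every axis, at 142 CPM of Neurod1, 69.4 CPM of Neurod4 and 1168 CPM of photoreceptor markers.

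MEIS proteins are homeodomain cofactors of PBX. Meis1 was at 58.3, 55.7, 48.7 and 55.0 CPM in KO animals a to d, against 38.6, 36.2, 59.7 and 39.7 CPM in WT animals a to d. WT animal c lay above all KO animals, and the other WT animals lay below them. The log2 fold change of Meis1 was 0.32 ± 0.20 (SE), with a 95% interval of -0.10 to 0.75, and it was 0.51 without WT animal c.

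Meis2 (chromosome 2, 115863064 to 116065839) was at 3.45, 9.58, 14.6 and 6.96 CPM in KO animals a to d, against 3.59, 0.05, 0 and 3.49 CPM in WT animals a to d. KO animal a lay within the WT range and the other KO animals above it. The fitted log2 fold change was 2.28 ± 1.24 (SE), with a 95% interval of -0.41 to 4.98 and an edgeR adjusted p of 0.787 (Benjamini-Hochberg). Without each animal in turn this fold change was 1.87 to 2.88 on the log2 scale. Meis2 is also an amacrine gene, and the 14 amacrine markers summed to 902 to 1114 CPM in KO animals and 530 to 778 CPM in WT animals, without overlap. Of the 8 tested amacrine markers, 0 passed the adjusted threshold, and 7 of 8 fold changes were positive. Of the 14, 9 stayed under 5 CPM in every animal, among them Gad1, Slc32a1 and Chat. Gad2, which makes GABA, was at 4.61 to 14.3 CPM in KO animals and 8.99 to 22.7 CPM in WT animals. The glycine transporter gene Slc6a9 was at 11.8 to 38.9 CPM in KO animals and 5.21 to 15.9 CPM in WT animals, and Tfap2b at 0.13 to 23.8 CPM in KO animals and 1.45 to 16.99 CPM in WT animals. The part of amacrine RNA in the Meis2 values was not tested.

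COUP-TF nuclear receptors pattern the optic cup, and both were low here. Nr2f1 was at 6.39, 9.69, 12.1 and 4.04 CPM in KO animals a to d, against 2.54, 6.01, 5.34 and 5.28 CPM in WT animals a to d. The ranges overlapped, and the log2 fold change was 0.75 ± 0.51 (SE), with a 95% interval of -0.36 to 1.85. Nr2f2 ranged from 1.60 to 4.36 CPM in KO animals and from 1.05 to 2.31 CPM in WT animals. Nr2f1 overlaps A830082K12Rik and Nr2f2 overlaps B130024G19Rik on the opposite strands.

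Onecut factors, which act in horizontal and ganglion cells, were low and varied between animals. Onecut2 was at 2.67 to 10.8 CPM in KO animals and 0.93 to 9.38 CPM in WT animals, and its log2 fold change was 0.13 ± 0.73 (SE). Onecut3 had 0 to 19 reads per KO library and 5 to 17 reads per WT library.

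Factors of early ganglion cell differentiation and of neuronal identity were abundant, and the intervals of their fold changes were narrow. Sox4 was at 81.0, 143, 168 and 161 CPM in KO animals a to d, against 112, 102, 137 and 97.2 CPM in WT animals a to d. KO animal a was below all WT animals for Sox4 and the other KO animals were above them. Sox11 had a fold change of the opposite sign, at 71.0, 69.5, 67.8 and 90.6 CPM in KO animals a to d, against 61.5, 99.6, 94.5 and 108 CPM in WT animals a to d. The log2 fold changes were 0.30 ± 0.21 (SE) for Sox4 and -0.28 ± 0.19 for Sox11, with edgeR adjusted p of 0.876 and 0.864 (Benjamini-Hochberg).

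Six6, a homeodomain factor of the eye field and optic nerve, was at 85.8 ± 8.25 CPM in KO animals and 90.6 ± 11.5 CPM in WT animals (SD, n = 4 each), with an interval of -0.39 to 0.24. Barhl2 was at 245 ± 38.2 CPM in KO animals and 237 ± 26.5 CPM in WT animals, with an interval of -0.24 to 0.34. Klf7, a Krüppel-like factor known to promote axon growth, was at 152 ± 34.4 CPM in KO animals and 130 ± 13.7 CPM in WT animals, with an interval of -0.13 to 0.59. Myt1l, a zinc-finger repressor of non-neuronal genes, was at 554 ± 97.4 CPM in KO animals and 553 ± 27.0 CPM in WT animals, and its log2 fold change was 0.00 ± 0.13 (SE) and an interval of -0.27 to 0.27.

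**Figure D4:**
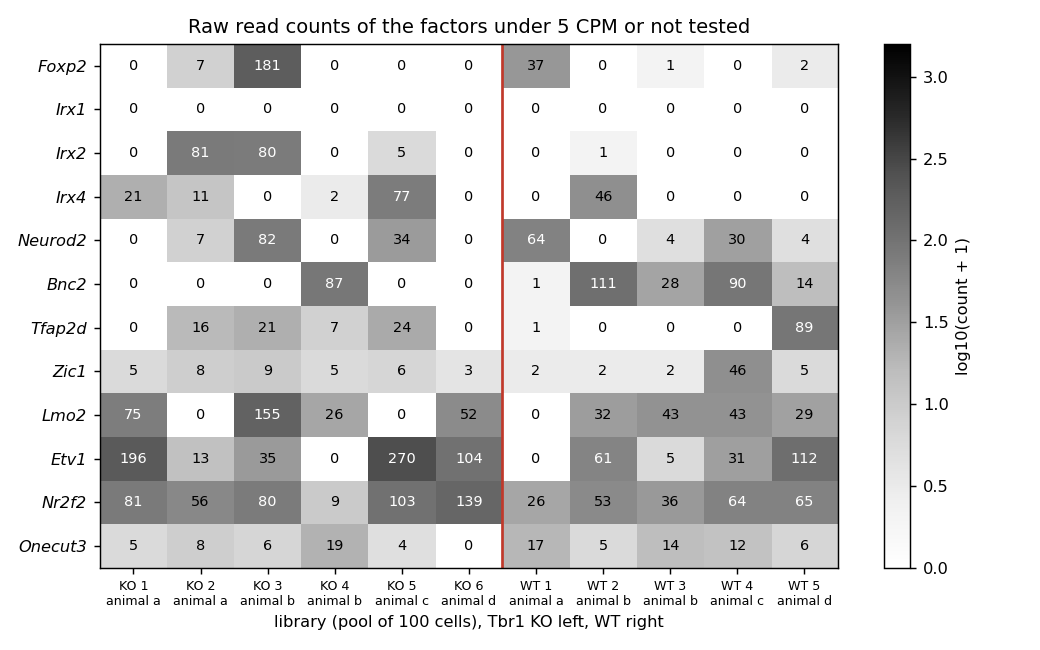
Raw read counts of the 12 members that were untested or under 5 CPM in both genotypes, 1 column per library with its animal, Tbr1 KO left of the red line and WT right of it, shaded by log10 of the count plus 1. Irx1 has 0 reads throughout, and Foxp2, Irx2, Neurod2 and Bnc2 each have their reads in some pools and 0 in others.

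Agreement between pools of 1 animal depended on the level of the factor. For the 12 members at 40 CPM or more, the pools of KO animals a and b and of WT animal b gave 36 pairs, with a median difference of 1.12-fold and a highest of 1.77-fold. Among the 12 is Neurod1, which reaches that level through KO animal c and was at 3.84 to 25.8 CPM in these pools. Without it the 33 pairs gave the same median of 1.12-fold. For the 9 members between 5 and 40 CPM, 25 of 27 pairs were counted in both pools, with a median difference of 1.52-fold and 8 pairs over 2-fold. For the 7 tested members under 5 CPM, 7 of 21 pairs had reads in 1 pool and none in the other, and the 12 pairs counted in both differed by a median of 3.54-fold. In these pools of 100 cells, pools of 1 animal thus differed more at a level of a few CPM than at higher levels. Some members at that level were still counted throughout, such as Nr2f2, with reads in all 6 KO and all 5 WT libraries.

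**Figure D5:**
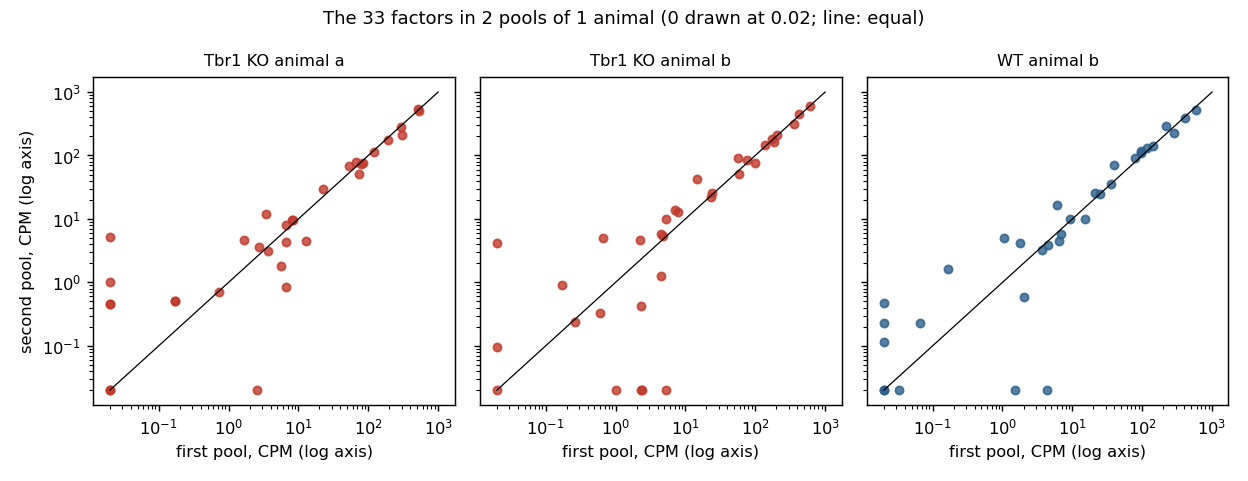
CPM of the 33 factors in the first and second pool of the 3 animals with a pair of pools, on log axes, 1 point per factor, with 0 drawn at 0.02 and a line at equal levels. Factors at 40 CPM or more lie along the line (at most 1.77-fold apart), and the scatter widens below about 5 CPM.

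Among 38 paralogs and cofactors of these factors, 25 were tested and 0 were called at an adjusted edgeR p under 0.05, where 0.287% of tested genes were called. At an unadjusted edgeR p under 0.05 there were 4, with Klf6 and Bcl11b among the 3 lower and Neurod4 the 1 higher in KO animals, and the median log2 fold change over the 25 was -0.01. The DESeq2 Wald test called 1 gene of this list.

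Klf6, an axon growth factor related to Klf7, was at 83.2, 64.8, 73.1 and 74.5 CPM in KO animals a to d, against 125, 76.7, 90.1 and 107 CPM in WT animals a to d. KO animal a lay among the WT animals, and the log2 fold change was -0.43 ± 0.17 (SE). Bcl11b, the paralog of Bcl11a, was at 6.84, 8.34, 2.22 and 6.08 CPM in KO animals a to d, against 14.1, 15.2, 6.83 and 16.5 CPM in WT animals a to d. WT animal c was the only WT animal within the KO range, and the log2 fold change of Bcl11b was -1.16 ± 0.46 (SE). The edgeR adjusted p was 0.584 for Klf6 and 0.593 for Bcl11b (Benjamini-Hochberg). Pbx3, which encodes a partner of MEIS proteins, had a log2 fold change of -0.41 ± 0.23 (SE), not past the threshold.

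Facts of the whole series that bear on these values are as follows. Reads in genes were 15615581 to 34564970 per KO library and 8609845 to 34718693 per WT library, with WT library 3 the shallowest. Tbr1 itself was at 94.2 to 145 CPM in KO animals and 155 to 193 CPM in WT animals, and since counts take in any exon that remains, this does not check the genotype. The 14 pan-ganglion cell markers summed to 16494 to 18463 CPM in KO animals and 15955 to 18412 CPM in WT animals. Nefl made up 32.4% of that sum. Of these 14, 0 were called by edgeR after adjustment. At an unadjusted edgeR p under 0.05, 3 were higher and 4 lower in KO animals, where 7.09% of tested genes passed that mark. The J-RGC markers Jam2, Tbr1 and Sorcs3 summed to 213 to 289 CPM in KO animals and 738 to 930 CPM in WT animals. The 14 Müller glia and progenitor markers summed to 421 to 766 CPM in KO animals and 300.2 to 455 CPM in WT animals. Dkk3, the 1 of these 14 called by edgeR (adjusted p = 0.0495), made up 46.2% of that sum. The 7 horizontal cell markers summed to 654 to 747 CPM in KO animals and 629 to 730.0 CPM in WT animals. Of that sum Tpm3 made up 60.9%, and Lhx1 was at 0 in all animals. The 13 astrocyte, vascular, microglia and blood markers summed to 8.84 to 46.3 CPM in KO animals and 28.7 to 76.2 CPM in WT animals.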

How the data were processed

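The authors deposited 1 file of raw counts for each library, with reads per gene symbol. The submitters' processing notes list Trimmomatic 0.32, TopHat2 2.0.10, HTSeq 0.6.1 and the mm10 build (GRCm38), without the role of each. No annotation or strand setting is stated (not given in the sources used here). Lines that name no gene, 36.1% to 39.9% of the reads listed, were left out.

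Counts of libraries from 1 animal were summed, as the labels tie them together. After filterByExpr and TMM scaling, the edgeR 4.0.16 quasi-likelihood test with robust dispersion was run in R 4.3.3 (Benjamini-Hochberg over all tested genes, threshold 0.05); the approach was also tested on simulated data. Each SE is the absolute log2 fold change over the square root of F. Exact tests used log2 CPM with a prior count of 0.5. Alternatives were other scalings and filters, DESeq2 1.42.0, libraries as replicates, 1 library per animal, a replicate block and leaving out each animal. GENCODE M21 gave positions and merged exon lengths for 95.7% of symbols, and RefSeq gave promoters. Plots used matplotlib 3.10.9.

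The members and lists were chosen with earlier results of these data known. Members at an unadjusted p under 0.05 or without overlap between genotypes are given with the value of every animal and full statistics, then the most abundant of each role; members with few reads are given by raw counts. Foxp1, Irx3, Neurod1, Meis1, Meis2 and Nr2f1 were given in full after their values were seen. Paralogs and cofactors are named by the same marks, with up to 6 others by level. Values of some single genes of these lists are not reported here. Without molecular identifiers, the limits from counts of 0 (3 reads over the group) cover counting error only.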

Additional observations from a re-analysis of the deposited data

Results flagged for a closer look

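In 7 of 64 groups of 4 animals, 1 animal stood apart from the other 3 beyond Dixon's critical value (95%). For independent, normally distributed values chance gives about 1 in 20 groups. Genes near zero and genes of the same animals do not meet that condition, so the 7 cannot be judged against that rate. Foxp1 was at 11.9 CPM in WT animal d, against 6.71 to 7.34 CPM in the other WT animals. Foxp4 was at 46.5 CPM in WT animal b, against 66.6 to 68.7 CPM in the others. Meis1 was at 59.7 CPM in WT animal c, against 36.2 to 39.7 CPM, and Barhl2 at 276 CPM in WT animal b, against 220.4 to 230 CPM. Sox11 was at 90.6 CPM in KO animal d, against 67.8 to 71.0 CPM in the other KO animals. Bnc2 was at 1.56 CPM in KO animal b and at 0 in the other KO animals, with all its reads from library 4. Tfap2d was at 2.79 CPM in WT animal d, against 0 to 0.04 CPM in the other WT animals.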

How the results depend on the processing

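The count of members called after adjustment was 0 in the edgeR fit and in each edgeR alternative, and 1 with DESeq2 (Lmo4, adjusted p = 0.0207 by its Wald test). Over the other alternatives the adjusted p of Lmo4 by edgeR ran from 0.0717 to 0.606. The lowest came with the 11 libraries as replicates and the highest without KO animal b. Among paralogs and cofactors the counts were 0 and, with DESeq2, 1. Over all genes, 40 were called, against 262 with DESeq2, 84 with the 11 libraries as replicates, and 17 to 44 without each animal in turn. Members at an unadjusted p under 0.05 numbered 2 to 5 without each animal in turn, with 2 without KO animal d or WT animal b. The members' median log2 fold change was 0.13 to 0.25 without each animal and moved by less than its spread between animals (0.0908) elsewhere too.

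Titles give both genotypes the same replicate numbers. Same-numbered libraries correlated by -0.0321 to 0.139 in their deviations, and only number 5 had its own number as closest match. These low correlations cannot exclude a pairing, and the main fit used none. A fit of the libraries with the number as a block called 43 genes, 0 members and 0 paralogs or cofactors, with 5 members at an unadjusted p under 0.05 and a median log2 fold change of 0.14.

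Of 400 recomputed log2 fold changes of 25 genes, 378 kept their direction and side of the threshold, 2 were newly called with DESeq2 (Lmo4 among them) and 20 changed sign, in 7 members of which none was called. In the replicate block fit Irx3 was at 0.28, Onecut2 at -0.41, Barhl2 at -0.058 and Myt1l at -0.040. With 1 library per animal Satb1 was at -0.041, Bcl11a at 0.042 and Myt1l at -0.0035, and with the 11 libraries as replicates Onecut2 was at -0.28. Without each animal in turn the values ran from -0.012 to 0.32 for Satb1, -0.56 to 0.41 for Irx3, -0.45 to 0.65 for Onecut2, -0.36 to 0.011 for Bcl11a, -0.031 to 0.13 for Barhl2, -0.13 to 0.018 for Six6 and -0.090 to 0.11 for Myt1l. The cause was not tested. The Lmo1 log2 fold change was 0.47 and that of Meis2 4.44 in the replicate block fit. Depth limits Irx1, at 0 reads, to 0.0181 CPM over the KO reads and 0.0229 CPM over the WT reads; its part in the scatter of the members under 5 CPM was not tested.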
